A study of Rattus norvegicus with 5 samples.

Results

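The Rab GTPases were followed through the change from flat monolayers to follicles in FRT cells, a thyroid epithelial line of the Fischer rat. Members were all genes whose rat symbol is Rab followed by a number and at most a letter or a letter and digit, from Rab1a to Rab43, found through the RefSeq accession of each array probe. The rule gave 57 symbols, of which 54 were measured among 15154 genes in all, and Rab22a, Rab37 and Rab42 were not measured here. Proteins that bind Rabs without being Rabs were left out of the family and counted separately as regulators.

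Rab proteins are small GTPases that mark the membranes of a cell and recruit the tethers, motors and coats that move vesicles between them. Exchange factors load a Rab with GTP, GTPase activating proteins return it to the GDP state, and a prenyl anchor holds it in the membrane. In polarized epithelia, Rab8, Rab11 and Rab17 are known for carrying cargo to the apical surface and to the lumen.

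RNA was taken on day 5 from 2D cultures, which were confluent monolayers, and from 3D cultures, which were follicles grown in Matrigel, a basement membrane extract. Each of 4 arrays held 1 3D replicate in Cy5 and a pool of 4 2D cultures in Cy3, and 1 further array had the dyes swapped, with pooled 3D RNA in Cy3 against the 2D pool in Cy5. All cells were of the same line, and no other treatment or genotype separated the groups according to the labels. Because the 2D side was always the same pool, the spread between 2D cultures was not measured, and the error given here is that between 3D replicates and arrays. Values are log2 ratios of 3D over 2D, with the sign of the swapped array turned, so a value above 0 is higher in 3D.

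The replicate arrays correlated with each other at r = 0.871 to 0.946 over genes, and the dye swap array with them at 0.734 to 0.765. All 7 epithelial markers were well above background on every array, in the scanner software's test of a spot against its surroundings. Among thyroid follicular markers, Tg, Tshr, Nkx2-1 and Slc5a5 were above it on no array, while Pax8, Foxe1 and Hhex were above it on all. Of the 7 epithelial markers 3 rose in limma, Krt19 by 1.23, Ocln by 0.88 and Epcam by 0.28 (adjusted p = 4.21e-06, 4.09e-06 and 0.0093). Pax8 rose by 0.71 (limma, adjusted p = 0.0013), and no other marker of these lists passed. Among markers of other cells, the fibroblast genes Col1a1, Col3a1 and Pdgfra were above background on all arrays, and Pdgfra rose, at 0.55 in limma (adjusted p = 6.79e-06), the 1 fibroblast marker of 8 that passed. Of 4 endothelial markers Cdh5 was above background, and of 7 leukocyte markers Csf1r and Lyz2 were, on 1 or 2 arrays in a condition. Lyz2 was lower in 3D, at -0.20 (limma, adjusted p = 0.0093). The part of other cell types in the results below was not tested.

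In 3D cultures, 14 of 54 Rab genes were higher and 6 were lower at an FDR below 0.01 in limma, with the p-values adjusted over all genes. The largest rises were those of Rab19, Rab15 and Rab17, each above 2-fold, and the largest fall was that of Rab30, also above 2-fold. Of 7 Rabs of regulated secretion 3 were higher, among them Rab3d and Rab27a, and in 3 pairs genes of the same Rab number went in opposite directions. The 14 higher members made up 25.9% of the family, beside 14.4% of all genes tested, and the 6 lower members made up 11.1%, beside 11.5% of all genes. Among genes well above background on all 5 arrays in both conditions, which 45 of the 54 members were, the shares were 31.1% of members beside 26.7% of 7590 genes for higher, and 13.3% beside 22.2% for lower. The median log2 ratio was 0.026 over the family and 0.0032 over all genes.

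All 20 members that passed had the same sign on all 5 arrays, as did 97.1% of all genes that passed. A change of at least 2-fold was seen in 7.41% of the members and in 2.17% of all genes, or in 8.89% and 4.22% where both were limited to genes above background on all arrays. At an unadjusted p under 0.05 in limma, 19 members were higher and 8 lower. Over all genes 22.3% were higher and 18.1% lower at that threshold, and over genes above background on all arrays 37.8% and 31.2%. In these bulk samples, a different share of cells expressing a gene and a different RNA level per cell cannot be told apart.

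**Figure D1:**
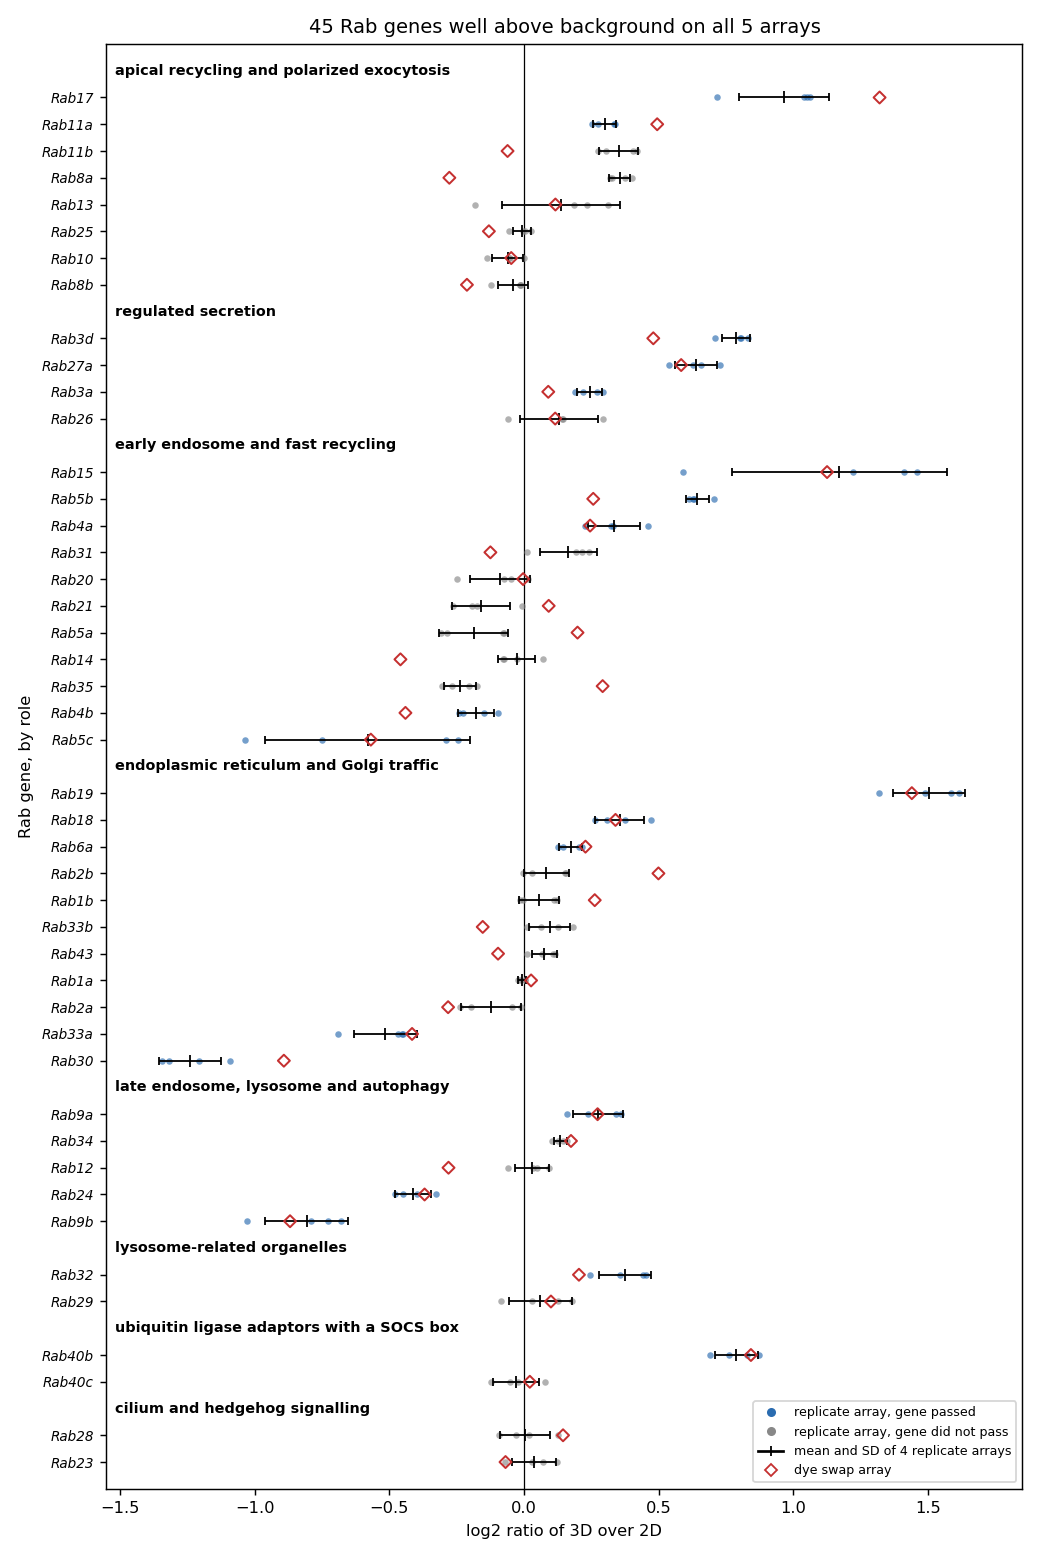
Log2 ratio of 3D over 2D (x axis) for the 45 Rab genes well above background on all 5 arrays, grouped by role (y axis). Filled points are the 4 replicate arrays, black marks and bars their mean and SD, and open diamonds the dye swap array; blue genes passed the test at an FDR below 0.01. Rab19, Rab15 and Rab17 lie farthest to the right and Rab30 farthest to the left, while most grey genes lie within 0.2 of 0 in the fit.

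Among the 8 Rabs of apical recycling and polarized exocytosis, Rab17 and Rab11a rose and none fell. All 8 were above background on all arrays, where 26.7% of genes rose and 22.2% fell at this FDR. The 2 that rose were thus near the share of such genes. At an unadjusted p under 0.05 in limma 4 of the 8 were higher and 0 lower, beside the 37.8% and 31.2% of genes above background. Rab17 is an epithelial Rab known for apical recycling and transcytosis. Its log2 ratio was 0.72, 1.05, 1.06 and 1.04 in replicates 1 to 4 and 1.32 on the dye swap array. Every array was thus above 0, with replicate 1 below the other replicates and the swap above them. The change was 2.05-fold (log2 ratio 1.04 ± 0.073, SE; limma, adjusted p = 4.45e-06). Rab11a, the Rab of the recycling endosome, was raised by less, at 0.25, 0.34, 0.27 and 0.33 in the replicates and 0.49 on the swap. All 5 values were above 0, and the fitted change was 1.26-fold (limma, adjusted p = 3.16e-04).

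Rab8a and Rab11b were higher in all 4 replicates but not on the swap array. Rab8a carries vesicles to the apical membrane and the cilium, and its log2 ratio was 0.37, 0.40, 0.32 and 0.32 in the replicates and -0.28 on the swap. The replicates lay close together, with a mean of 0.35 ± 0.039 (SD, n = 4), and the swap ran the other way. The fit over 5 arrays gave 0.23 ± 0.092 (SE) and did not pass (limma, adjusted p = 0.091), while without the swap it gave 0.35 with an adjusted p of 5.02e-05 in limma. In a limma model with a term for the dye, Rab8a was the 1 member of 54 whose dye effect passed (adjusted p = 0.0049). Over all 15154 genes the dye effect passed in 288. The change left for Rab8a was 0.039. With 1 swapped array, the dye and whatever else set that array apart cannot be told apart. Rab11b, a close relative of Rab11a, read 0.42, 0.31, 0.40 and 0.28 in the replicates and -0.061 on the swap, for a fitted 0.27 (limma, adjusted p = 0.012).

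The other 4 of these genes did not pass. Rab25, an epithelial relative of Rab11, had a log2 ratio of -0.032, Rab10, known for basolateral and glucose transporter traffic, had -0.059, and Rab8b had -0.076. Rab13, a Rab of tight junction assembly, was -0.18 in replicate 1 and 0.18 to 0.31 in the other replicates, so its replicates straddled 0. Apart from Rab17, no apical Rab had a fitted change of 0.5 or more.

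Regulated secretion held 7 measured members, of which Rab3d, Rab27a and Rab3a rose and none fell, beside 14.4% and 11.5% of all genes. Of the 7, 4 were above background on all arrays, where 26.7% of genes rose and 22.2% fell. At an unadjusted p under 0.05 in limma 4 of the 7 were higher and 0 lower, beside 22.3% and 18.1% of all genes. Rab3d sits on secretory granules of exocrine cells, and its log2 ratio was 0.83, 0.71, 0.80 and 0.80 in the replicates and 0.48 on the swap. Its replicates lay within a narrow range above the swap, and the change was 1.65-fold (log2 ratio 0.73 ± 0.056, SE; limma, adjusted p = 8.14e-06). Rab27a, which docks granules and lysosome-related organelles at the plasma membrane, read 0.63, 0.73, 0.54 and 0.66 with 0.58 on the swap. These 5 values overlapped fully between the dye orientations, with a 1.54-fold change (limma, adjusted p = 3.41e-06). Rab3a, a Rab of synaptic and granule release, had a smaller value of 0.21 (limma, adjusted p = 0.0038), which lost its call when any 1 replicate was left out (adjusted p = 0.013 to 0.024). Rab26, also of secretory granules, had 0.13 and did not pass. Rab3b, Rab3c and Rab27b were not well above background on any array, so their log2 ratios between -0.071 and 0.016 carry no level.

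Among the 11 Rabs of the early endosome and fast recycling, all above background, Rab15, Rab5b and Rab4a were higher and Rab5c and Rab4b lower. These counts were near the shares among genes above background on all arrays, 26.7% higher and 22.2% lower. Rab15, known for slowing recycling from early endosomes, read 0.59, 1.22, 1.46 and 1.41 in the replicates and 1.12 on the swap. All arrays were above 0, but replicate 1 lay apart, and its SD of 0.40 (n = 4) was the widest of the 45 members above background, whose median SD was 0.081. The change was 2.24-fold (log2 ratio 1.16 ± 0.11, SE; limma, adjusted p = 2.70e-05). Rab5b, 1 of 3 Rab5 genes that drive fusion of early endosomes, read 0.61, 0.63, 0.71 and 0.63 with 0.26 on the swap. Its replicates were tight and the swap was lower but still above 0, for a 1.48-fold change (limma, adjusted p = 9.10e-05). Rab4a, which returns cargo quickly from early endosomes to the surface, read 0.33, 0.46, 0.23 and 0.32 with 0.25 on the swap. All 5 arrays were above 0, and the change was 1.25-fold (limma, adjusted p = 4.51e-04).

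Rab5c fell to a degree that differed between replicate arrays, where culture and array cannot be told apart. Its log2 ratio was -1.03 and -0.75 in replicates 1 and 2, -0.25 and -0.29 in replicates 3 and 4, and -0.57 on the swap. Every array was below 0, with replicates 1 and 2 more than the swap and replicates 3 and 4 less. The fitted value was -0.58 ± 0.10 (SE; limma, adjusted p = 0.0017), and without replicate 2 it was -0.54 and did not pass (limma, adjusted p = 0.011). Rab4b was slightly lower, at -0.23 (limma, adjusted p = 0.0074), and this call was lost without any 1 replicate (adjusted p = 0.010 to 0.030).

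Rab35 and Rab5a, which did not pass, changed sign on the swap array. Rab35, a Rab of endocytic recycling and cytokinesis, read -0.17, -0.31, -0.20 and -0.27 in the replicates and 0.29 on the swap, and its fitted value of -0.13 did not pass (limma, adjusted p = 0.27). Without the swap it was -0.24 and passed (limma, adjusted p = 9.68e-04). Rab5a read -0.31, -0.074, -0.29 and -0.080 in the replicates and 0.20 on the swap, for a fitted -0.11. Of the remaining early endosomal genes, Rab14, Rab20, Rab21 and Rab31, none passed, with fitted values of -0.11 to 0.11. Rab14, which moves cargo between endosomes and the Golgi, was near 0 in the replicates and -0.46 on the swap, and with a dye term it was lower by a call (-0.24; limma, adjusted p = 0.0025).

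Of the 12 Rabs of endoplasmic reticulum and Golgi traffic, Rab19, Rab18 and Rab6a rose and Rab30 and Rab33a fell. Among the 12, 11 were above background on all arrays, and 26.7% of such genes rose and 22.2% fell. Rab19, a little-studied Rab placed at the Golgi, had the largest change of the family in the reported fit. Without the background offset Rab30 changed more in size, at -1.83 against 1.67 for Rab19. The same held with Agilent's processed signals, at -2.16 against 1.73. In the reported fit, Rab19 was higher on every array. It read 1.32, 1.62, 1.58 and 1.49 in the replicates and 1.44 on the swap. The swap lay inside the range of the replicates, and the change was 2.81-fold (log2 ratio 1.49 ± 0.051, SE; limma, adjusted p = 8.01e-08). Rab18, found on the endoplasmic reticulum and lipid droplets, was higher by 1.28-fold (limma, adjusted p = 1.61e-04). Rab6a, of retrograde Golgi traffic, was higher by 1.14-fold (limma, adjusted p = 0.0047), and lost its call without any 1 replicate (adjusted p = 0.012 to 0.026).

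Rab30, a Golgi Rab, was the member with the largest fall. It read -1.21, -1.34, -1.32 and -1.09 in the replicates and -0.89 on the swap. All 5 arrays were far below 0, with the swap nearest to it, and the level was 2.25-fold higher in 2D (log2 ratio -1.17 ± 0.066, SE; limma, adjusted p = 1.15e-06). Rab33a, also of the Golgi, read -0.47, -0.69, -0.45 and -0.45 with -0.42 on the swap. Apart from replicate 2 these values lay close together, and the level was 1.41-fold higher in 2D (limma, adjusted p = 3.88e-05).

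The classical Rabs between endoplasmic reticulum and Golgi did not pass. Rab1a, needed for transport out of the endoplasmic reticulum, lay between -0.022 and 0.026 on all arrays, the smallest fitted difference among the members. Rab1b had 0.096 by its brightest probe, while the dimmest of its 4 probes read -0.28. Rab2a and Rab2b, of the same transport step, had -0.15 and 0.17, and neither passed (limma, adjusted p = 0.043 and 0.10). Rab2b passed with a dye term (0.29; limma, adjusted p = 0.0011), as its swap value of 0.50 lay above all replicates. Rab33b and Rab43 had 0.045 and 0.041. Rab6b was not well above background on any array, with replicates of 0.060 to 0.13 and -0.24 on the swap.

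Late endosome, lysosome and autophagy held 9 members, of which Rab9a rose and Rab9b and Rab24 fell, beside 14.4% and 11.5% of all genes. Rab9 proteins return receptors from late endosomes to the Golgi. Rab9b read -1.03, -0.79, -0.73 and -0.68 in the replicates and -0.87 on the swap. The swap lay within the replicates, all below 0, and the level was 1.76-fold higher in 2D (log2 ratio -0.82 ± 0.054, SE; limma, adjusted p = 3.11e-06). A second, dimmer probe of Rab9b gave -0.49 and was above background on 5 arrays in 2D and on 0 in 3D. Rab9a was 1.21-fold higher in 3D (limma, adjusted p = 8.41e-04). Rab24, an autophagy Rab, was 1.32-fold higher in 2D, with -0.48 to -0.33 in the replicates and -0.37 on the swap (limma, adjusted p = 4.43e-05).

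Rab34, which positions lysosomes and acts in cilium formation, was 0.10 to 0.16 in the replicates and did not pass, with a fitted 0.14 (limma, adjusted p = 0.015). Rab12, of endosome to lysosome traffic, read 0.034, 0.049, -0.060 and 0.094 in the replicates and -0.28 on the swap, near 0 on all but the last. Rab7a, the main late endosomal Rab, was dim, above background on 5 arrays in 3D and 3 in 2D, with a fitted -0.10. Rab7b, Rab36 and Rab39a were not above background on any array, and the swap value of Rab7b, -0.23, ran against its replicates of 0.052 to 0.17.

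The remaining lists held few genes. Rab32, which acts in the biogenesis of melanosomes and other lysosome-related organelles, was 1.27-fold higher in 3D (limma, adjusted p = 4.79e-04), Rab29 had 0.069 and did not pass, and Rab38 was not above background. Rab40b carries a SOCS box that joins it to a ubiquitin ligase, and read 0.83, 0.87, 0.76 and 0.69 in the replicates with 0.84 on the swap. All 5 arrays lay close together, with a 1.74-fold change (log2 ratio 0.80 ± 0.043, SE; limma, adjusted p = 8.11e-07). Its relative Rab40c had -0.020. The ciliary Rabs Rab23, a brake on hedgehog signalling, and Rab28 had 0.016 and 0.033, and neither passed. Of the 25 members above background that did not pass, 23 had a fitted log2 ratio within 0.2 of 0, and all lay between -0.15 and 0.27.

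The 4 members with a change of at least 2-fold are shown by the start of their genes, since they carry the largest differences in the reported fit. That set depends on the background offset of 50, which compresses changes of dim genes. Without an offset Rab40b had a log2 ratio of 1.32 in place of 0.80, and Rab30 had -1.83. Over the alternatives Rab9b ran from -1.805 to -0.65. Each window runs from 250 bases before to 50 after the annotated start, 5′ to 3′ on the strand of the gene, taken from RefSeq on the build GRCr8, and lies at chr4:69123712-69124011 on the plus strand for Rab19, chr6:101257034-101257333 on the minus strand for Rab15, chr9:99013983-99014282 on the minus strand for Rab17 and chr1:156215887-156216186 on the plus strand for Rab30. Capitals mark matches to the motifs searched.
Rab19: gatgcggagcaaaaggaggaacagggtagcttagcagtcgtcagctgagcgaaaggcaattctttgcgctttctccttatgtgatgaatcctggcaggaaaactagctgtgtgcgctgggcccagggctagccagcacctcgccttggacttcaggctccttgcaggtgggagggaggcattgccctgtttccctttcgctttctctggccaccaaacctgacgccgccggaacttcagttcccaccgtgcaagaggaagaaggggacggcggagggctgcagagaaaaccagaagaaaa
Rab15: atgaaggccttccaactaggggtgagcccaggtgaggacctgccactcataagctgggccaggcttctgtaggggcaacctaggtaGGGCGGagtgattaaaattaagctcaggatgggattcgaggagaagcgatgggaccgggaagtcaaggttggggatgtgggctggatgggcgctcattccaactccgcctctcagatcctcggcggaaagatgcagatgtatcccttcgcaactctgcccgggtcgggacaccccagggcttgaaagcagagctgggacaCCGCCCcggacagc
Rab17: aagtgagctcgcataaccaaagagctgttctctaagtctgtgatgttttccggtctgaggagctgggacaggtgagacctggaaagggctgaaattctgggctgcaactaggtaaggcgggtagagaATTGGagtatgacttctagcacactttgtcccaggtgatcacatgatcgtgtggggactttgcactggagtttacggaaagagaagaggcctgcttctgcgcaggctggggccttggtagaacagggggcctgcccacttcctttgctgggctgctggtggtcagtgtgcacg
Rab30: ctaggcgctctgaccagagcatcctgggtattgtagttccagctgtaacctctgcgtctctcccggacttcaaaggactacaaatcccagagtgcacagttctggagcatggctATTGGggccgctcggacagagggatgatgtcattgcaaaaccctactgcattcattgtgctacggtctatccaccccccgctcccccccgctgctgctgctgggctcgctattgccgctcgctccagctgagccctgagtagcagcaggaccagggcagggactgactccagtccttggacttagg

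Both strands were searched for the letters GGGCGG of the GC box and for the CCAAT box, the TATA box, the E box, the AP-1 site and the cyclic AMP response element, each spelled out beside its share below. Rab15 held a GC box at -164 and another at 37 on the reverse strand, counted from the start. Rab17 held CCAAT on the reverse strand at -123 and Rab30 at -136, and Rab19 held no match. Over the family, 45 of the 54 measured members had a window in the table, and 80% of them held a GC box, beside 34.9% of all 27457 promoters and 49.1% of the 12384 promoters of genes measured here. A GC box was present in 1 of the 4 members that passed with at least 2-fold change, in 12 of 14 that passed with less, and in 23 of 27 that did not pass. Rab40b and Rab9b, each with 1 GC box, were beyond 2-fold under other settings, so the first of these sets depends on the processing. A relation between these letters and the size of change was not tested. The CG dinucleotides in the window numbered 7 to 13 in the first set, 15 to 38 in the second and 4 to 41 in the third, with medians of 12, 21 and 24. The range of members that did not pass thus spans that of the first set. The CCAAT box, as CCAAT, was found in 37.8% of members and 37.7% of all promoters, and the TATA box, as TATAAA, in 0% of members and 14.3% of all. The E box CACGTG was found in 8.89% of members beside 6.65%, the AP-1 site TGANTCA in 8.89% beside 7.33%, and the cyclic AMP response element TGACGTCA in 2.22% beside 1.91%. These counts describe letters in the window only, and the binding of a factor was not measured.

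Genes that share a Rab number, such as Rab4a and Rab4b, encode close relatives with related membranes. There were 13 such groups with 29 measured genes, a grouping made after the values were seen. In 12 pairs both genes were above background on all arrays, and in 8 of these the difference between the relatives had the same sign on all 5 arrays. Opposite calls were made in 3 pairs. Rab5b exceeded Rab5c by 1.23 ± 0.35 log2 units (SD, n = 4) on the replicate arrays and by 0.83 on the swap, Rab9a exceeded Rab9b by 1.08 ± 0.10 and 1.14, and Rab4a exceeded Rab4b by 0.51 ± 0.16 and 0.69. In each of the 3 the arrays of both dye orientations gave the same direction. This follows from picking pairs by opposite calls, since every member that passed kept its sign on all 5 arrays. With 4 replicate arrays, an exact two-sided sign-flip permutation test cannot go below p = 0.125, which all 3 differences reached (0.167 after adjustment over the 12 pairs). Rab8a and Rab8b, whose difference reversed on the swap, reached 0.125 in that test as well, so it does not set the 3 pairs apart.

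In other pairs 1 relative moved more than the other. Rab40b exceeded Rab40c by 0.82 ± 0.14 log2 units (SD, n = 4), Rab33a lay 0.61 ± 0.082 below Rab33b, and Rab3a lay 0.54 ± 0.088 below Rab3d. All 3 kept their direction on the swap array, at 0.82, -0.26 and -0.39 for the first gene minus the second. Rab8a exceeded Rab8b by 0.40 ± 0.078 on the replicates but by -0.065 on the swap. Cross-hybridization between probes of relatives was not tested.

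**Figure D2:**
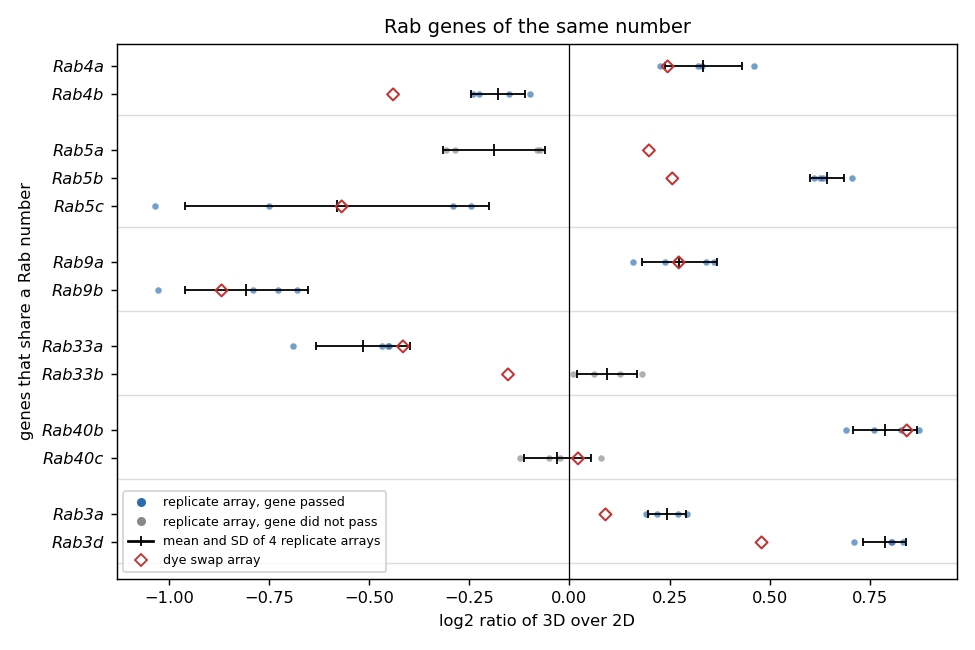
Log2 ratio of 3D over 2D (x axis) for Rab genes that share a number (y axis); filled points are the 4 replicate arrays, blue where the gene passed, black marks and bars their mean and SD, and open diamonds the dye swap array. Rab4a, Rab5b and Rab9a lie to the right of 0 on all arrays, and Rab4b, Rab5c and Rab9b to the left.

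The dye swap array was set beside the replicates for every member. It had the sign opposite to the mean of the replicates in 12 of the 45 members above background, none of which passed. How often this held over all genes was not counted. The opposition was 0.3 or more in 7 members, of which 5 (Rab8a, Rab11b, Rab35, Rab5a and Rab12) were above background and Rab6b and Rab7b were not. The family had a median log2 ratio of 0.034 to 0.055 in the replicates and of 0.0090 on the swap. With the dye term, 14 of 54 members were higher and 7 lower, beside 2099 and 1835 of all 15154 genes. Rab14 and Rab2b were then added and Rab3a no longer passed (limma, adjusted p = 0.013).

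**Figure D3:**
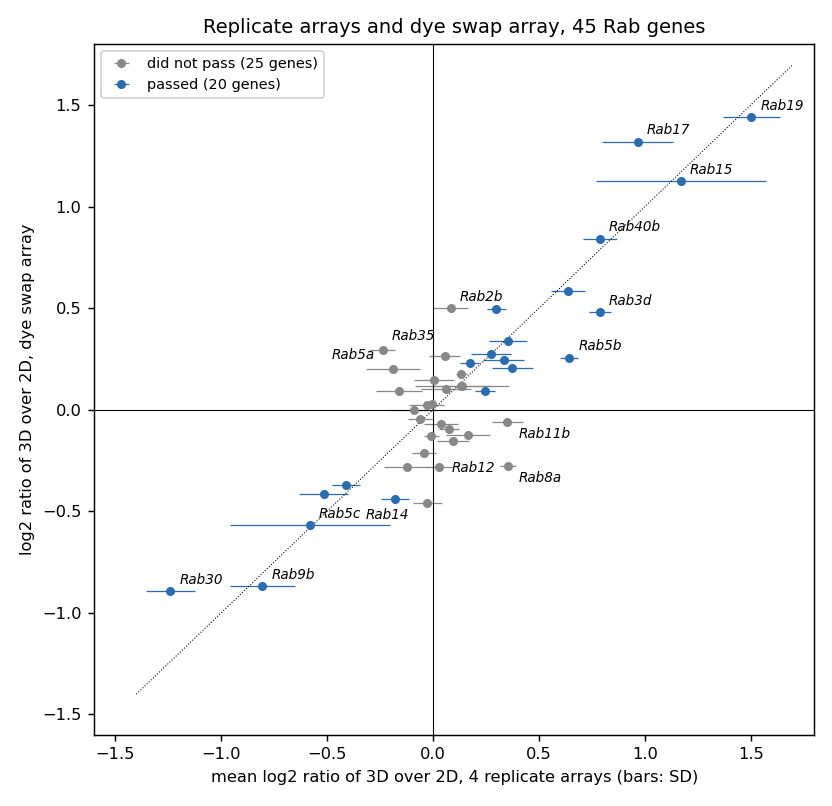
Log2 ratio of 3D over 2D on the dye swap array (y axis) against the mean of the 4 replicate arrays (x axis, bars show SD) for the 45 Rab genes above background; the dotted line marks equal values. All 20 blue genes, which passed, lie at upper right or lower left, while Rab8a, Rab11b, Rab35 and Rab5a lie at lower right or upper left.

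The regulators of Rab proteins were read from 3 lists chosen by function. Of 58 measured regulators, 16 were higher and 6 lower in limma, with a median log2 ratio of 0.11. These shares of 27.6% and 10.3% stood beside 14.4% and 11.5% of all genes. Of the 51 regulators above background on all arrays 29.4% were higher and 11.8% lower, beside 26.7% and 22.2% of such genes, so the share of higher regulators was near that of other detected genes. At an unadjusted p under 0.05 in limma, 26 of the 58 were higher and 11 lower, beside 22.3% and 18.1% of all genes. Among 32 exchange factors, 9 rose and 4 fell. Trappc6a, a subunit of the TRAPP complex that acts on Rab1, rose by 0.75 ± 0.043 (SE; limma, adjusted p = 1.21e-06). Rin2, an exchange factor of Rab5, rose by 0.59, and Rpgr, a ciliary protein that binds Rab8, by 0.55. Dennd5a, a DENN domain protein that binds Rab6, fell by 1.75 log2 units (adjusted p = 2.84e-07 in limma), from -1.77 to -1.47 in the replicates and -2.11 on the swap. Sh3bp5, an exchange factor of Rab11, fell by 0.64 and Rin3, another of Rab5, by 0.51. Thus Rin2 and Rin3 went in opposite directions. Rab3ip, the exchange factor of Rab8, was named after its values were seen, and rose by 0.43 (limma, adjusted p = 1.91e-04), with 0.59 on the swap array on which Rab8a itself was -0.28.

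Among 19 GTPase activating proteins, 6 rose and 1 fell. Of the 19, 16 were above background on all arrays, and 26.7% of all such genes rose and 22.2% fell. Sgsm3 rose by 0.86 (limma, adjusted p = 8.47e-06), Tbc1d14, which binds Rab11, by 0.61, and Tbc1d10c by 0.49, the last above background on 3 of 5 arrays in 2D. Tbc1d20, which acts on Rab1, fell by 0.47. Among the genes of prenylation and recycling, Rabggtb, the beta subunit of the enzyme that prenylates Rabs, fell by 0.34 (limma, adjusted p = 1.71e-04), and its swap value of -0.33 lay within the replicates.

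**Figure D4:**
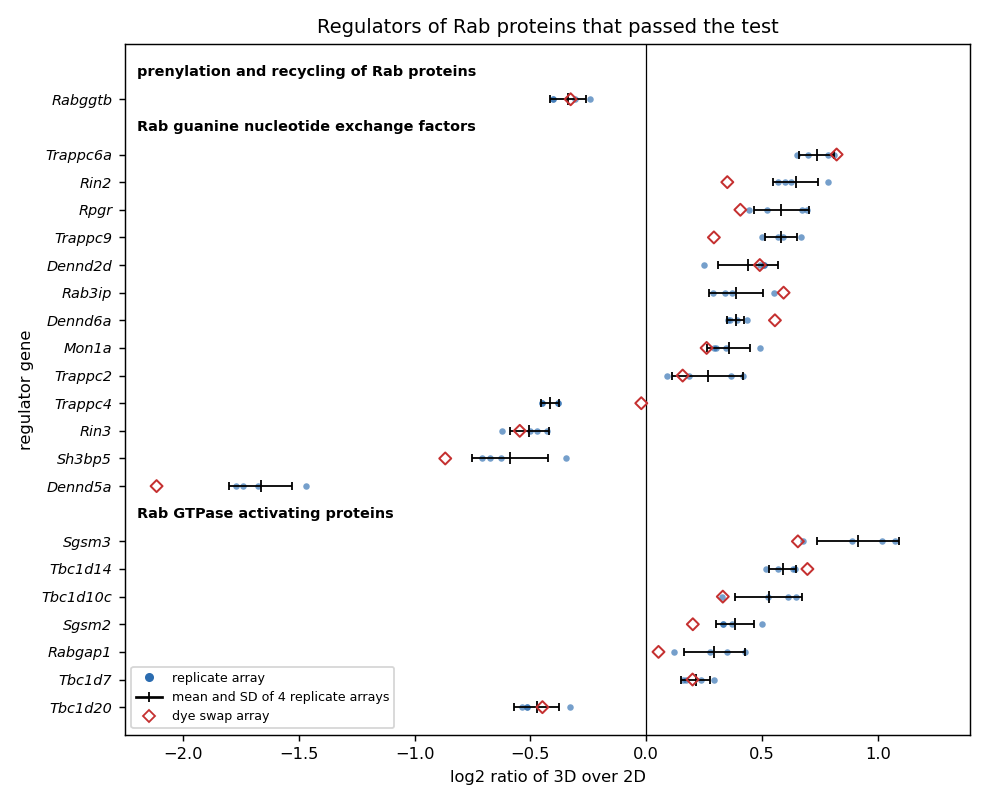
Log2 ratio of 3D over 2D (x axis) for regulators of Rab proteins that passed, grouped by list (y axis); filled points are the 4 replicate arrays, black marks and bars their mean and SD, and open diamonds the dye swap array. Dennd5a lies farthest to the left and Sgsm3 farthest to the right, and the swap value of Trappc4 lies near 0, away from its replicates.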

How the data were processed

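The authors deposited, for each of 5 Agilent 2-colour rat arrays of 1 slide, intensities of spots and of their surroundings as pixel medians, per the file headers from Agilent Feature Extraction 10.7.3.1, on an array design of build rn4. The authors' value table holds log2 ratios that they made by normexp, loess and quantiles in limma, and was used here as an alternative, as were the software's processed intensities.

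From the deposited median intensities, ratios were made with limma 3.58.1 in R 4.3.3: normexp with an offset of 50, loess with controls at weight 0, and quantiles of average intensity. The offset compresses changes of dim genes. Spots marked as outliers by the scanner software, 1.12% to 1.60% per array, were left out, spots of a probe were averaged, and the brightest probe stood for its gene. Symbols came from RefSeq, matched by accession without version for 17998 of 30367 probes. No spot was saturated. The number of arrays limits the precision.

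The test was a limma model with 1 coefficient over 5 arrays (prior of 5.12 degrees of freedom), adjusted by Benjamini-Hochberg over 15154 genes at an FDR of 0.01. The fit was tested on simulated ratios that were independent between arrays, with no dye effect and no shared pool. That run therefore could not show how the fit behaves with those features. Alternatives were a dye term, other background and normalization, all probes averaged, dim genes removed, an FDR of 0.05 and each array left out. Keeping the outlier spots was chosen after seeing the data.

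The members, roles, regulator lists and rules were chosen with earlier results of these data known. Any member could be named. Values on each array were given for members that passed with a log2 ratio of at least 0.5 in size, for Rab4a, Rab8a, Rab11a and Rab17, which the study names, and where the swap opposed the replicate mean by 0.3 or more. For regulators, up to 3 higher and 3 lower genes per list were named, those with the largest change that passed and lay above background. Some genes that these rules select are not shown. Of several probes, a further one was given for Rab1b and Rab9b only. Second probes of Rab20, Rab23, Rab33b and Rab6b differed in sign from the brightest, with means of 0.029, -0.0037, -0.031 and -0.015.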

Additional observations from a re-analysis of the deposited data

Results flagged for a closer look

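A replicate that stood apart from the other 3 was looked for in all 54 members, and 3 were found, where chance alone marks about 1 group in 20. Rab17 read 0.7165 in replicate 1 beside 1.04 to 1.06 in the others. Rab33a read -0.6893 in replicate 2, and the others lay near -0.45. Rab8b, which did not pass the test, read -0.1245 in replicate 1. The first 2 genes kept their direction and their call when that replicate was left out.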

How the results depend on the processing

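Direction held for every member that passed under all 15 alternatives, except that with median centring in place of loess Rab24 read 0.12 and Rab4b 0.27. That setting called 7 genes of all, and of the Rab genes and regulators limma called 0 higher and 0 lower, with 18 and 2 Rab genes and 27 and 1 regulators at an unadjusted p under 0.05. Without an offset in normexp, 2222 genes were called in place of 3918, with 9 Rab genes and 10 regulators higher. At an FDR of 0.05, 25 regulators were higher. The median log2 ratio of the Rab genes, 0.026 as reported, was 0.045 without an offset, 0.014 with Agilent's processed signals, 0.46 with median centring, 0.017 with quantiles over all channels, 0.015 in the authors' table, 0.011 with all probes averaged, 0.057 without dim genes, 0.0076 with a dye term, 0.046 without the dye swap array, and 0.011 to 0.028 without 1 replicate. The calls of Rab6a, Rab3a, Rab4b and Rab5c were lost in 10, 7, 7 and 4 alternatives, for Rab4b with the reversal included. Those of Rab11a, Rab4a and Rab18 were lost in 2 each, with median centring and without an offset. Without an offset their adjusted p was 0.0149, 0.019 and 0.011 in limma. No paired analysis was possible because the 2D side was 1 pool on every array.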

Other observations

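Rab5c fell more in replicates 1 and 2 (-1.03 and -0.75) than in the other replicates (-0.25 and -0.29). Among the marker genes, Cldn7, a tight junction claudin of epithelia, read -1.59 and -1.03 where Rab5c fell more, and -0.089 and 0.039 where it fell less. Col3a1, a fibrillar collagen, read 1.09 and 0.78 against -0.070 and -0.10. Neither marker passed the test (limma, adjusted p = 0.040 and 0.12). These genes were picked after their values were seen, and their relation to Rab5c was not tested.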
